A study of Mus musculus with 67 samples.

Results

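Car3, Rdh16, Dlat, Gfra1, Pdzk1ip1, Raet1d and Muc1 are 7 genes whose level in mouse liver differed between Sestrin DKO and WT livers, or answered the diet differently in them, after 8 days of feeding. They were picked for this on the day 8 libraries, with the results of those libraries known and with no numerical threshold stated. They make up 7 of 55450 genes counted, and all 7 passed the filter on low counts that left 16908 genes for testing. Their day 8 values are therefore given as a description, with no p. The libraries of day 1, which come from other mice, are the ones on which differences were tested.

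The data are RNA-seq gene counts from 67 mouse livers, 1 library per numbered mouse. At day 1 there were 18 livers of DKO mice and 12 of WT mice on leucine-free food, and 8 of DKO mice and 7 of WT mice on control food. At day 8 there were 6 livers of DKO mice and 6 of WT mice on leucine-free food, and 5 of DKO mice and 5 of WT mice on control food. The genotype is written in the labels as Sesn2 DKO and in the design text as Sestrin DKO; strain, sex, age, the alleles and any promoter or cell type that limits the deletion were not given in the sources used here. Each diet comparison has its own control livers of the same day and genotype.

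Sestrins are stress-induced proteins. When leucine runs short, Sestrin1 and Sestrin2 act through the GATOR complexes on the lysosome to hold mTORC1, the kinase complex of growth, in check. The liver answers the loss of an amino acid in part by lowering the synthesis of fat, which draws on acetyl-CoA. The 7 genes have different jobs: Car3, Rdh16 and Dlat encode enzymes, Gfra1, Raet1d and Muc1 encode proteins of the cell surface, and Pdzk1ip1 encodes a small membrane protein.

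Total counts lay between 22814668 and 56916009 per library. Levels are in CPM, the count scaled to the TMM-adjusted library size, and the error beside each log2 value is the standard error of its estimate. Sesn1 marked the genotype without overlap, at 3.49 to 7.68 CPM in 37 DKO livers and 9.24 to 22.2 CPM in 30 WT livers, whereas the count over the whole Sesn2 gene was not lower in DKO livers and does not check the labels. The hepatocyte marker Alb had at least 30934 CPM in every liver. The summed CPM of 8 hepatocyte markers, most of it Alb, ran lower in leucine-free DKO livers. Its medians were 82978 in DKO and 101230.0 in WT livers at day 1, and 87844 in DKO and 113390.0 in WT livers at day 8. The ranges overlapped. On leucine-free food edgeR called 1 of the 8 higher and 2 lower in DKO than in WT livers at day 1, where 3.7% of all genes tested were called. At day 8 it called 0 higher and 1 lower, where 2.06% of all genes tested were called. The median log2 differences were -0.074 and -0.091, against 0.004 and 0.013 over all genes tested. The part of these markers in the results below was not tested. In these bulk samples, fewer cells of a type and less RNA per cell cannot be told apart. Over all genes, 3 livers stood farther from their groups than the rest: replicate 6 of the DKO mice fed leucine-free food for 8 days, and replicates 11 and 12 of the WT mice fed it for 1 day. A few results, such as those of Car3 and Gfra1 between the genotypes at day 1, are also given without these livers. Most other values are given with all livers only.

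At day 1 the diet moved up to 5 of the 7 genes, and the genotype up to 2. In DKO livers leucine-free food lowered Car3, Dlat, Pdzk1ip1 and Raet1d and raised Gfra1, 5 of 7 called at an adjusted p under 0.05, where 23.5% of all genes tested were called. In WT livers Dlat and Pdzk1ip1 fell and Gfra1 rose, 3 of 7 called against a background of 19.5%. On leucine-free food Gfra1 was higher and Car3 lower in DKO than in WT livers, 2 of 7 called against 3.7%; at an unadjusted p under 0.05 it was 4 of 7, against 19.1% of all genes. On control food none of the 7 was called by edgeR (0.881% of all genes); 1, Raet1d, had an unadjusted p under 0.05, as did 5.27% of all genes, and was called by limma voom, and DESeq2 called 0. For the interaction of diet and genotype none was called by edgeR, voom or DESeq2 (0.373% of all genes by edgeR), and 1 of 7, again Raet1d, had an unadjusted p under 0.05, as did 5.76% of all genes. The ranges of leucine-free and control livers did not overlap for 4 of the 7 genes in DKO livers, where 1.83% of all genes tested had this, and for 3 of 7 in WT livers, where 2.15% had it. Those of DKO and WT livers overlapped for all 7 genes, and were apart for 0.00591% of all genes on leucine-free and 0.172% on control food.

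At day 8 the same fit, which here only describes the choice of the genes, put 3 of the 7 past the threshold between the genotypes on control food, all higher in DKO livers: Pdzk1ip1, Raet1d and Dlat, where 0.0532% of all genes were called and 0.0473% were called higher. On leucine-free food it put 2 of 7 past it, Gfra1 higher and Car3 lower in DKO livers, against a background of 2.06%. All 7 passed it for leucine-free against control food in DKO livers, 6 lower and 1, Gfra1, higher, against 20.6%, and 0 of 7 in WT livers, against 5.25%. For the interaction of diet and genotype it was 3 of 7, Gfra1, Muc1 and Rdh16, against 0.0414%. The counts over all genes for control food and for the interaction moved with single livers. The 9 genes called on control food ran from 2, without WT control day 8 replicate 2, to 14, without DKO control day 8 replicate 3, and were 92 with voom. The 7 called for the interaction were 0 without WT control replicate 2, DKO control replicate 1, WT leucine-free replicate 1, WT leucine-free replicate 3 or DKO leucine-free replicate 2 of day 8, and 0 without the filter on low counts. They were 38 without WT control day 8 replicate 5 and 89 with voom. All 7 had day 8 ranges of leucine-free and control DKO livers that did not overlap, as did 10.9% of all genes tested, and none of the 7 had this in WT livers, as against 6.08% of all. Ranges of DKO and WT livers were apart for 2 of 7, Car3 and Gfra1, on leucine-free food (1.41% of all genes) and for 3 of 7, Raet1d, Dlat and Rdh16, on control food (1.99% of all genes). The plot of levels by group shows each liver.

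**Figure D1:**
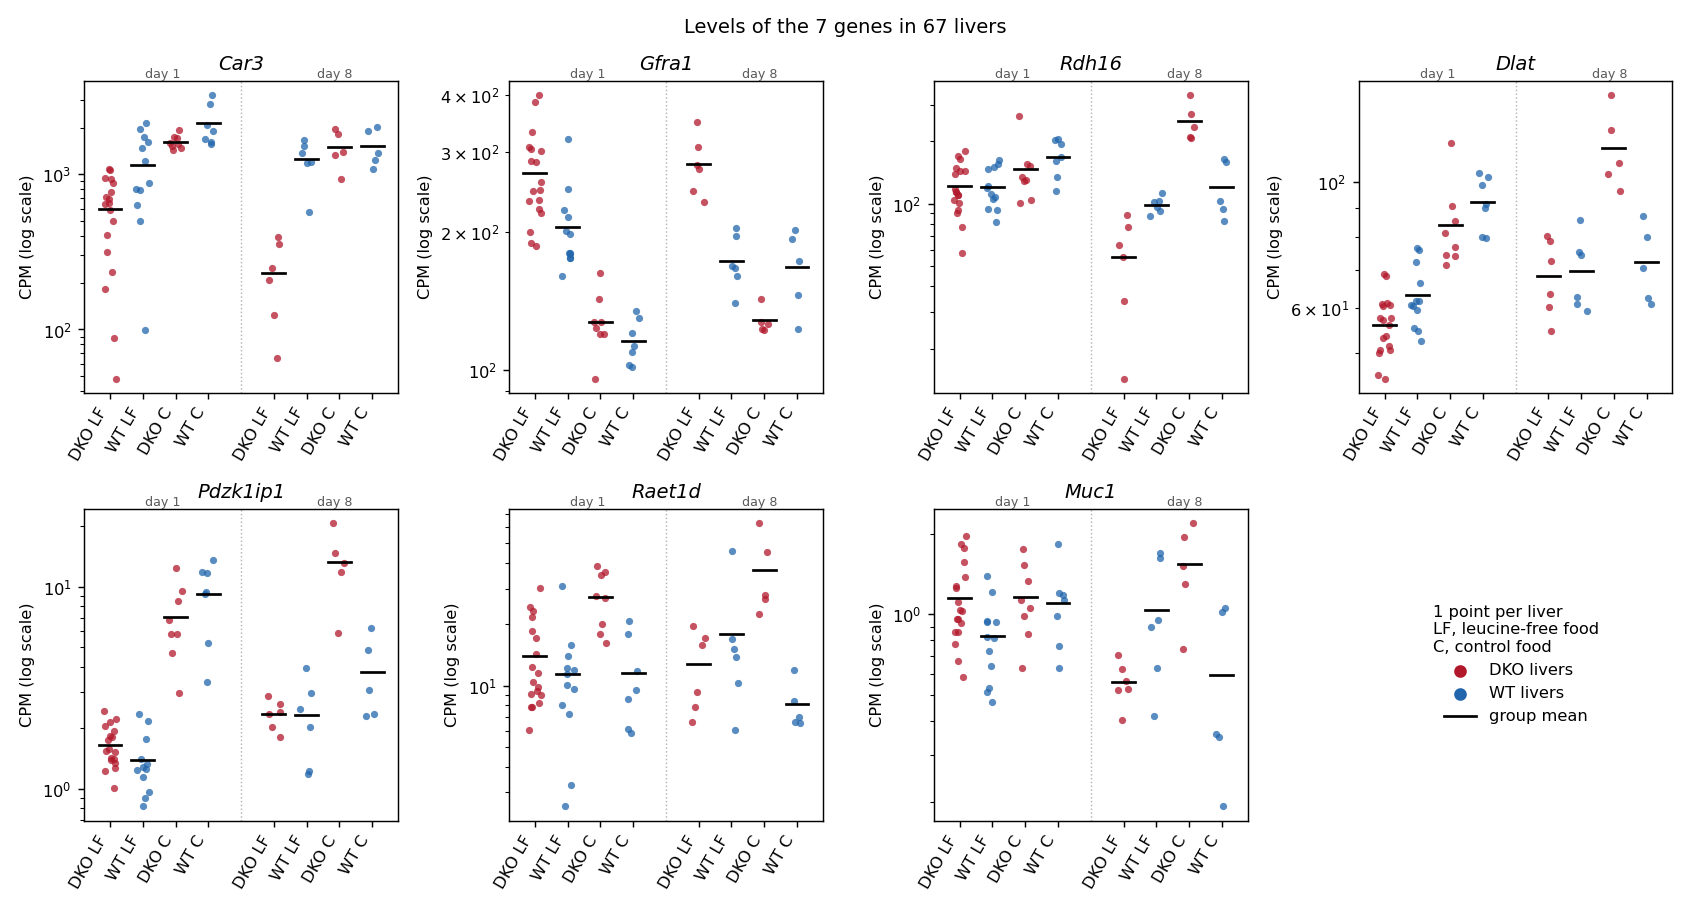
CPM of each of the 7 genes (log scale, 1 panel per gene) in 67 livers, 1 point per liver, by group and day; red points are DKO and blue points WT livers, LF is leucine-free and C control food, and bars are group means. At day 8 the leucine-free and control DKO livers do not overlap for any of the 7 genes, whereas the leucine-free and control WT livers overlap for each of them.

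The promoters of Pdzk1ip1 and Dlat are shown because their levels went most alike among the 7 over all 67 livers, differences between groups included (Pearson's r = 0.81). For deviations from the group means the r of Pdzk1ip1 and Dlat was 0.36, below that of Rdh16 and Dlat, at 0.53. The promoter of Gfra1 is shown because its levels over the 67 livers went opposite to those of Pdzk1ip1 and Dlat. The sequences are from RefSeq (build GRCm38.p6), whose promoter table holds 6 of the 7 genes, and run 5′ to 3′ on the strand of the gene from 250 bases before to 50 bases after its start in RefSeq. That start lies 511 bases inside the outer end of the GENCODE gene span for Gfra1 and 1342 bases inside it for Raet1d, so these windows hold the start of 1 transcript, and for the other 4 genes it is within 1 base of the GENCODE start. The stretches are chr4:115088458-115088757, plus strand for Pdzk1ip1, chr9:50659731-50660030, minus strand for Dlat and chr19:58455349-58455648, minus strand for Gfra1.
Pdzk1ip1 promoter: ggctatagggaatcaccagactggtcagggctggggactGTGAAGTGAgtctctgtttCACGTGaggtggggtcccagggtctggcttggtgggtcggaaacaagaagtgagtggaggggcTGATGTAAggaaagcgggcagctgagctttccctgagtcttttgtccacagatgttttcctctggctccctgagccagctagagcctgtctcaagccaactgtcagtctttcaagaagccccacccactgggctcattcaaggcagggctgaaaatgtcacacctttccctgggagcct
Dlat promoter: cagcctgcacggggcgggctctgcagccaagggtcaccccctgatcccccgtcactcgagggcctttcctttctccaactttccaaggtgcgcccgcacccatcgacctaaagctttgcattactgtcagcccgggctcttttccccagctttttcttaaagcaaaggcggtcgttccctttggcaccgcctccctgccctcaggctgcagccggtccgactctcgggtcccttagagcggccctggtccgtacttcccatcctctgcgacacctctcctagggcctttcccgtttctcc
Gfra1 promoter: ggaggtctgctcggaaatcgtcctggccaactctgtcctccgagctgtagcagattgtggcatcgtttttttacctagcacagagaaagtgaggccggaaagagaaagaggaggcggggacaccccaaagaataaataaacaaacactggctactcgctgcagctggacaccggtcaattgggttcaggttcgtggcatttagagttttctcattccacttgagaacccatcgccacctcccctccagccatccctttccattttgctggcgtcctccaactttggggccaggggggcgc
Capitals mark matches, on either strand, to 5 short motifs that were searched for. In the Pdzk1ip1 promoter these are the E-box CACGTG, at -192, the sterol response element core TCACNNCAC on the reverse strand, at -211, and the amino acid response element core TGATGNAA, at -129, each the position of the first base relative to the start; they do not overlap. The RefSeq set holds 32851 promoters, of which 7.15% held the E-box, 3.77% the sterol core and 3.97% the amino acid core. The Dlat, Gfra1 and Raet1d windows held none of the 5. The glucocorticoid receptor core AGAACA occurred in the Rdh16 window and in 19.0% of all, and the antioxidant response element core TGACNNNGC in the Muc1 window and in 12.4% of all. A match is a description of the letters and not of a bound site.

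Car3 (ENSMUSG00000027559, GRCm38 chromosome 3, 14863512 to 14872523, plus strand) encodes carbonic anhydrase III, a cytosolic enzyme that turns CO2 into bicarbonate slowly and is abundant in liver, fat and muscle. It was the most highly expressed of the 7 per kilobase of exon, and it fell on leucine-free food in DKO livers. At day 1 the lowest, median and highest level was 48.2, 653 and 1085 CPM in 18 leucine-free DKO livers and 99.6, 1050.5 and 2149 CPM in 12 leucine-free WT livers. On control food it was 1428, 1582 and 1935 CPM in 8 DKO livers and 1572, 1892 and 3238 CPM in 7 WT livers. All 18 leucine-free DKO livers lay below every control DKO liver, whereas 8 of the 12 leucine-free WT livers lay below every control WT liver. The log2 fold change on leucine-free food was -1.44 ± 0.32 (adjusted p = 0.000464) in DKO livers and -0.88 ± 0.37 (adjusted p = 0.0839) in WT livers.

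Between the genotypes on leucine-free food Car3 was at 598 ± 327 CPM in DKO livers and 1157 ± 638 CPM in WT livers at day 1 (SD, n = 18 and 12), a log2 difference of -0.95 ± 0.29 (adjusted p = 0.0495) by edgeR's quasi-likelihood test. Below the WT median lay 16 of the 18 DKO livers, and the ranges overlapped. The call was close to the threshold: the adjusted p was 0.0571 with total counts in place of TMM, and of 30 fits that left out 1 liver each 10 kept it under the threshold (adjusted p from 0.0115 to 0.114). Car3 was not called there with the mouse number as a further term of the fit. WT leucine-free replicate 12 held the lowest WT value, and without the 3 livers that stood apart the log2 difference was -1.14 (adjusted p = 0.00658). On control food the log2 difference was -0.40 ± 0.41 (adjusted p = 0.999), and for the interaction it was -0.56 ± 0.51 (adjusted p = 0.999).

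At day 8 the level of Car3 was 65.3, 228 and 393 CPM in 6 leucine-free DKO livers and 572, 1289 and 1658 CPM in 6 leucine-free WT livers (lowest, median and highest). On control food the 5 DKO livers had 938, 1334, 1399, 1833 and 1968 CPM, and the 5 WT livers had 1081, 1229.5, 1365, 1898 and 2013 CPM. Every leucine-free DKO liver lay below every liver of the other 3 groups of that day, which overlapped with each other. The log2 difference, as a description, was -2.68 ± 0.50 for the diet in DKO livers and -0.28 ± 0.48 in WT livers. By group means over both days Car3 was lowest in day 8 leucine-free DKO livers (233 ± 128 CPM) and highest in day 1 control WT livers (2135 ± 655 CPM), and each group overlapped in range with its neighbour in that order.

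Of 15 other carbonic anhydrase genes listed and counted 11 were tested. Leucine-free food at day 1 left 3 lower in DKO livers and 2 in WT livers, and none higher, where 23.5% and 19.5% of all genes tested were called. Car14, a membrane-bound member, fell by 0.83 in DKO livers and fell by 0.69 in WT livers on the log2 scale, and Car7, a cytosolic member, fell by 0.58 in DKO livers and fell by 0.70 in WT livers. Car1, the isoform of red blood cells, was the 1 member lower in DKO than in WT livers on leucine-free food at day 1, at -1.18 ± 0.26 (adjusted p = 0.00455); of 6 erythroid markers tested 3 were lower there too, and their part in it was not tested. Of 13 pericentral hepatocyte genes 1 was lower and of 12 periportal ones 2 were, and none was higher. Between the genotypes on leucine-free food at day 1, 3.7% of all genes tested were called. The median diet change of the carbonic anhydrases was -0.25, against 0.023 over all genes tested in DKO livers and -0.055, against 0.014 over all genes tested in WT livers. Of the other tissues rich in Car3, fat and muscle, several listed markers were near 0: the adipocyte genes Adipoq, Plin1, Cfd, Lep and Retn stayed at or below 0.288 CPM and the muscle genes Ckm and Acta1 at or below 0.160 CPM in every liver. Mylpf, another listed muscle gene, ran from 0.437 to 2.74 CPM. Of 8 muscle genes listed 1 was tested, and it was not called at day 1. At day 8 its diet change was 0.81, called, in DKO livers and 0.52, not called, in WT livers. Of 8 adipocyte genes listed 3 were tested, Fabp4, Lipe and Cidec, and 1 was called between the day 1 groups. Cidec, a lipid droplet protein of fat that fatty liver also makes, was higher in DKO than in WT livers on leucine-free food at day 1, with a log2 difference of 2.00 ± 0.50 (adjusted p = 0.0154), and higher on leucine-free than on control food in DKO livers, with one of 1.93 ± 0.57 (adjusted p = 0.00944). Its lowest, median and highest levels at day 1 were 0.492, 1.07 and 28.1 CPM in leucine-free DKO, 0.193, 0.690 and 1.51 CPM in leucine-free WT and 0.267, 0.632 and 1.59 CPM in control DKO livers, so that a few leucine-free DKO livers stood far above the rest. The part of Cidec or of fat in the Car3 difference was not tested. At day 1 the summed CPM of the 8 adipocyte genes ran from 21.3 to 52.3 in leucine-free DKO and 19.0 to 51.0 in leucine-free WT livers, and from 19.3 to 32.4 in control DKO and 22.1 to 37.5 in control WT livers. At day 8 that sum, most of it Fabp4 and Lipe, ran from 23.8 to 32.9 in leucine-free DKO livers and from 23.4 to 28.0 in leucine-free WT livers. That of 8 muscle genes ran from 1.40 to 2.76 in the same DKO livers and from 1.14 to 2.77 in the same WT livers.

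Growth hormone is a known regulator of Car3 in rat liver, so 11 genes of the growth hormone response were counted beside it. Ghr, the growth hormone receptor, was lower in DKO than in WT livers on leucine-free food at day 1, with a log2 difference of -0.33 ± 0.087 (adjusted p = 0.0215), the 1 gene of the list called there, where 3.7% of all genes tested were called. In DKO livers on leucine-free food Ghr fell by 0.56 and Igf1, a hormone made under its control, fell by 0.44 at day 1, and 1 gene, Cux2, rose. In WT livers 1 of the 11, Stat5b, a transcription factor of the pathway, rose and none fell at day 1. The shares called for the diet over all genes tested were 23.5% in DKO and 19.5% in WT livers. The list's median diet change at day 1 was -0.0020, against 0.023 over all genes tested in DKO livers, and 0.10, against 0.014 over all genes tested in WT livers. The day 8 values of the list are a description, since livers of that day were used to choose Car3. At day 8 on leucine-free food 3 of the 11 passed the threshold as lower in DKO than in WT livers, where 2.06% of all genes tested were called. Their log2 differences were -0.59 ± 0.14 for Ghr, -0.63 ± 0.17 for Stat5a, a transcription factor of the pathway, and -0.76 ± 0.21 for Igfals, a carrier of Igf1 in plasma. The day 8 median of the 11 there was -0.36, against 0.013 over all genes tested. On leucine-free food 4 of 11 passed it as lower than on control food in DKO livers at day 8, where 20.6% of all genes tested were called. Among them the log2 changes were -1.03 ± 0.14 for Ghr, -0.84 ± 0.17 for Igf1 and -0.86 ± 0.22 for Igfals. The median of the 11 was -0.65, against 0.0060 over all genes tested. For the diet in WT livers at day 8, 0 of 11 were called by edgeR (2 at an unadjusted p under 0.05), where 5.25% of all genes tested were called. The median was -0.17, against -0.0040 over all genes tested. On control food at day 8 the genotypes differed in 0 of 11 (0 at an unadjusted p under 0.05). The part of this list in the Car3 values was not tested.

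Rdh16 (ENSMUSG00000069456, GRCm38 chromosome 10, 127801152 to 127846565, plus strand) encodes a retinol dehydrogenase of the short-chain family, which oxidises retinol towards retinoic acid and also acts on steroids. It was not called in any comparison of day 1, whereas its day 8 levels in DKO livers were the lowest of all groups by mean on leucine-free food and the highest on control food. At day 1 the lowest, median and highest level was 57.9, 114 and 181 CPM in leucine-free DKO livers and 81.5, 116 and 163 CPM in leucine-free WT livers. On control food it was 101, 132 and 266 CPM in DKO livers and 115, 168 and 205 CPM in WT livers, and all 4 groups overlapped. The log2 change on leucine-free food was -0.27 ± 0.18 (adjusted p = 0.284) in DKO livers and -0.48 ± 0.20 (adjusted p = 0.0785) in WT livers, with all 12 leucine-free WT livers below the control median. The log2 difference between the genotypes was 0.0048 ± 0.16 (adjusted p = 0.992) on leucine-free and -0.20 ± 0.22 (adjusted p = 0.999) on control food. For the diet in WT livers the adjusted p was 0.045 in a fit of the day 1 livers alone and 0.0334 with voom.

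At day 8 Rdh16 stood at 14.4, 59.5 and 88.7 CPM in leucine-free DKO livers and at 87.3, 99.4 and 113 CPM in leucine-free WT livers. The control DKO livers had 208, 209, 235, 272 and 334 CPM, and the control WT livers had 82.8, 94.6, 104, 159.6 and 165 CPM. All 5 control DKO livers lay above every control WT liver, and 5 of the 6 leucine-free DKO livers lay below every leucine-free WT liver. The log2 change on leucine-free food was -2.18 ± 0.26 in DKO livers and -0.29 ± 0.26 in WT livers. The lowest value of all, 14.4 CPM, belonged to DKO leucine-free replicate 6, which stood apart over all genes, and without the 3 such livers the change in DKO livers was -1.98. In the order of the 8 group means the top group, day 8 control DKO livers, was separate in range from the next, day 1 control WT livers (169 ± 34.8 CPM), and every other neighbour overlapped with its next.

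Of 33 other retinoid genes listed 29 were tested. With leucine-free food at day 1, 4 rose and 4 fell in DKO livers, and 6 rose and 5 fell in WT livers, where 23.5% and 19.5% of all genes tested were called. The median was -0.081, against 0.023 over all genes tested in DKO livers, and 0.049, against 0.014 over all genes tested in WT livers. Aldh1a7, an aldehyde dehydrogenase, fell by 1.61 in DKO livers and fell by 1.79 in WT livers, and Rdh11, a retinal reductase that is also a sterol-responsive gene, fell by 2.41 in DKO livers and fell by 2.42 in WT livers. Rbp4, the plasma carrier of retinol, rose by 0.73 in DKO livers and by 0.54 in WT livers. Between the genotypes at day 1 edgeR called none of the 29, and 8 on leucine-free and 0 on control food had an unadjusted p under 0.05. Rdh16f2, a close relative in the same family, was at 314 ± 95.4 CPM in leucine-free DKO livers and 273 ± 26.3 CPM in control DKO livers at day 8 (SD, n = 6 and 5). The exons of Rdh16 share 381 of 6217 bases with the pseudogene Rdh18-ps on the same strand, so its count is uncertain to that extent.

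Dlat (ENSMUSG00000000168, GRCm38 chromosome 9, 50634633 to 50659780, minus strand) encodes the dihydrolipoamide acetyltransferase core of the pyruvate dehydrogenase complex, which turns pyruvate into acetyl-CoA. It fell on leucine-free food at day 1 in both genotypes by nearly the same amount. The lowest, median and highest level was 45.1, 56.7 and 68.9 CPM in leucine-free DKO livers and 71.5, 79.1 and 117 CPM in control DKO livers, and the ranges did not overlap. It was 52.6, 61.2 and 76.6 CPM in leucine-free WT livers and 79.8, 91.5 and 104 CPM in control WT livers, again without overlap. The log2 fold change was -0.58 ± 0.080 (adjusted p = 3.58e-08) in DKO livers and -0.55 ± 0.091 (adjusted p = 4.89e-06) in WT livers, and it was called in every fit that left out 1 liver. The interaction was -0.034 ± 0.12 (adjusted p = 0.999). Between the genotypes the log2 difference was -0.17 ± 0.072 (adjusted p = 0.171) on leucine-free and -0.14 ± 0.10 (adjusted p = 0.999) on control food.

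At day 8 Dlat had 54.8, 68.2 and 80.3 CPM in leucine-free DKO livers and 59.3, 68.6 and 85.8 CPM in leucine-free WT livers. The control DKO livers had 96.4, 103, 108, 123 and 142 CPM, and the control WT livers had 60.9, 62.7, 70.7, 80.1 and 87.1 CPM. All 5 control DKO livers lay above every other liver of that day, and the remaining 3 groups overlapped. The log2 difference of control livers, DKO minus WT, was 0.66 ± 0.12, and the diet change was -0.74 ± 0.12 in DKO livers and -0.051 ± 0.12 in WT livers. In the order of group means each group overlapped with its neighbour.

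All 17 other genes listed for the complex and its regulation were tested. On leucine-free food at day 1, 5 fell and 2 rose in DKO livers, and 5 fell and 2 rose in WT livers, with medians of -0.097 in DKO and -0.036 in WT livers, against 0.023 and 0.014 over all genes tested. Pdhb, a subunit of the first enzyme of the complex, fell by 0.53 in DKO livers and fell by 0.77 in WT livers. Dld, the shared dehydrogenase, fell by 0.26 in DKO livers, and Pdk1, a kinase that switches the complex off, fell by 0.76 in WT livers. Pcx, pyruvate carboxylase, rose by 0.37 in DKO livers, and Pdpr, a subunit of the activating phosphatase, rose by 0.42 in WT livers. Between the genotypes edgeR called none of the 17 at day 1, where 4 on leucine-free and 2 on control food had an unadjusted p under 0.05. At day 8 it called none either, and 1 on leucine-free and 1 on control food had an unadjusted p under 0.05. Of 22 lipogenesis genes, which use the acetyl-CoA, the diet lowered 18 in DKO and 19 in WT livers at day 1. Of all genes 23.5% and 19.5% were called. Median changes were -1.71 in DKO and -1.81 in WT livers, against 0.023 and 0.014 over all genes tested. At day 8 they were -1.81 in DKO and -0.89 in WT livers. On control food at day 8 the median DKO minus WT difference was 0.62, against -0.007 over all genes tested. EdgeR called 0 of 22 there, with 10 at an unadjusted p under 0.05. For the day 8 interaction the median was -0.88, with 0 called. The part of this list in the Dlat values was not tested.

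Gfra1 (ENSMUSG00000025089, GRCm38 chromosome 19, 58235604 to 58455909, minus strand) encodes the lipid-anchored co-receptor that binds the growth factor GDNF and presents it to the receptor kinase Ret. At day 1 it was the 1 gene of the 7 called higher on leucine-free food, in both genotypes, and it was higher in DKO than in WT livers on that food. The lowest, median and highest level was 187, 252 and 399 CPM in leucine-free DKO livers and 160.4, 189 and 321 CPM in leucine-free WT livers. On control food it was 95.7, 125 and 163 CPM in DKO livers and 102, 113 and 134 CPM in WT livers. Each leucine-free liver lay above every control liver of its genotype. The log2 fold change for the diet was 1.08 ± 0.11 (adjusted p = 6.86e-12) in DKO livers and 0.82 ± 0.12 (adjusted p = 6.77e-07) in WT livers.

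On leucine-free food at day 1 Gfra1 averaged 269 ± 61.4 CPM in DKO livers and 205 ± 44.1 CPM in WT livers (SD, n = 18 and 12), a log2 difference of 0.39 ± 0.095 (adjusted p = 0.0119). Of 18 DKO livers 17 lay above the WT median, and 3 lay above the highest WT liver, replicate 12, which stood apart over all genes; without the 3 such livers the difference was 0.48 (adjusted p = 0.000671). The call held in 30 of 30 fits that left out 1 liver each. It was lost with the mouse number as a further term of the fit. On control food the difference was 0.14 ± 0.13 (adjusted p = 0.999). The interaction of diet and genotype was 0.25 ± 0.16 (adjusted p = 0.98), so a difference between the diet responses of the genotypes was not called at day 1.

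At day 8 Gfra1 had 233, 277 and 348 CPM in leucine-free DKO livers and 140.0, 168 and 205 CPM in leucine-free WT livers, with no overlap. The control DKO livers had 122, 123, 126, 127 and 143 CPM, and the control WT livers had 123, 146, 173, 194 and 202 CPM, which overlapped. The log2 difference, DKO minus WT, was 0.70 ± 0.15 on leucine-free and -0.38 ± 0.16 on control food, and the diet change was 1.13 ± 0.16 in DKO and 0.047 ± 0.15 in WT livers. Control DKO livers averaged 128 ± 8.42 CPM at day 8 and 128 ± 19.4 CPM at day 1, whereas control WT livers averaged 168 ± 33.1 CPM at day 8 and 116 ± 12.9 CPM at day 1. The order of the group means ran from day 8 leucine-free DKO livers to day 1 control WT livers, and each group overlapped with its neighbour.

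The partners of Gfra1 were nearly absent from these livers. Ret was at or below 0.0880 CPM and Gdnf at or below 0.0298 CPM in every liver, and they had no count in 56 and 64 of the 67 libraries. Of 13 other genes of the family listed 7 were tested. With leucine-free food at day 1, Gdf15, a stress hormone of the wider family, rose by 1.12 ± 0.33 (adjusted p = 0.0082) in DKO livers and by 1.09 ± 0.36 (adjusted p = 0.0242) in WT livers, and Sorl1, a sorting receptor that binds GDNF, fell by 0.45 in DKO livers and fell by 0.78 in WT livers. Nrtn, the ligand neurturin, rose in WT livers by 1.37 ± 0.35 (adjusted p = 0.00259). The list's median was 0.34, against 0.023 over all genes tested in DKO livers, and -0.048, against 0.014 over all genes tested in WT livers. Gfral, the brain-stem receptor of Gdf15, had no count in any of the 67 libraries. The exons of Gfra1 overlap the opposite-strand gene Gm16277 in 416 of 5476 bases, whose highest group mean was 0.0386 CPM; whether strand was used in counting was not given in the sources used here.

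**Figure D2:**
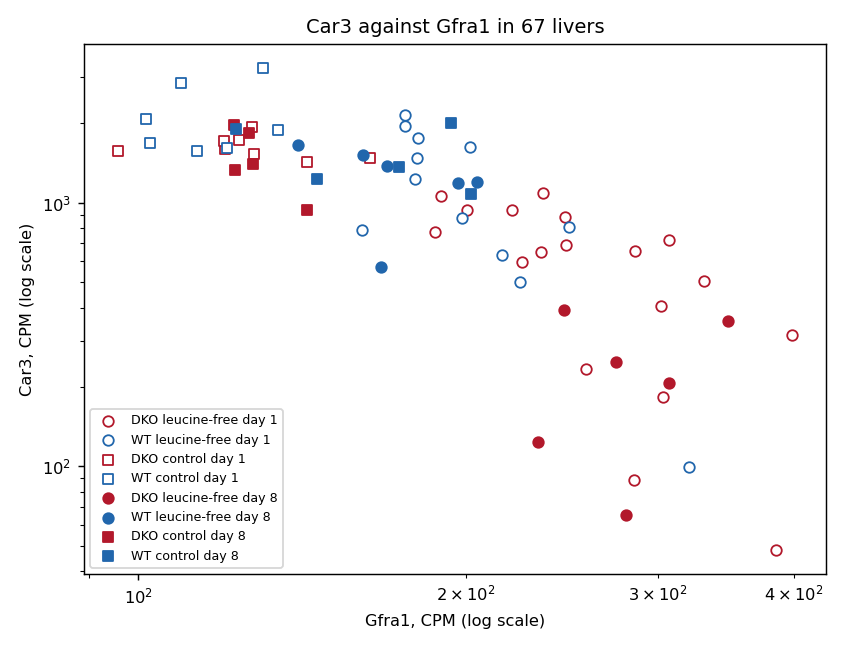
CPM of Car3 against CPM of Gfra1 in 67 livers (both axes log), 1 point per liver; red is DKO and blue WT, circles are leucine-free and squares control food, open symbols day 1 and filled symbols day 8. Livers low in Car3 tend to be high in Gfra1. The leucine-free DKO livers lie towards the lower right, as does 1 leucine-free WT liver of day 1. At day 1 the leucine-free DKO and WT livers overlap for both genes. Of the 18 DKO livers there, 2 lie below the lowest WT liver for Car3 and 3 above the highest for Gfra1. Over the 67 livers r was -0.78.

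Pdzk1ip1 (ENSMUSG00000028716, GRCm38 chromosome 4, 115088708 to 115093899, plus strand) encodes MAP17, a small membrane protein that binds the scaffold protein PDZK1 and in kidney works with the glucose transporter SGLT2. It had the largest diet response of the 7 at day 1, a fall in both genotypes. The lowest, median and highest level was 1.01, 1.56 and 2.42 CPM in leucine-free DKO livers and 2.97, 6.33 and 12.3 CPM in control DKO livers. It was 0.817, 1.26 and 2.34 CPM in leucine-free WT livers and 3.37, 9.35 and 13.6 CPM in control WT livers. In neither genotype did the ranges overlap. The log2 fold change was -2.08 ± 0.20 (adjusted p = 3.47e-13) in DKO livers, a 4.23-fold fall, and -2.72 ± 0.24 (adjusted p = 2.32e-14) in WT livers, a 6.58-fold fall. The interaction was 0.64 ± 0.32 (adjusted p = 0.876), and the log2 difference between the genotypes was 0.26 ± 0.22 (adjusted p = 0.57) on leucine-free and -0.38 ± 0.23 (adjusted p = 0.999) on control food.

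At day 8 Pdzk1ip1 had 1.80, 2.36 and 2.87 CPM in leucine-free DKO livers and 1.19, 2.25 and 3.97 CPM in leucine-free WT livers, which overlapped. The control DKO livers had 5.88, 11.9, 13.1, 14.6 and 20.7 CPM, and the control WT livers had 2.29, 2.34, 3.08, 4.85 and 6.25 CPM. Of the 5 control DKO livers 4 lay above every control WT liver, and the fifth lay within their range. The log2 difference of control livers, DKO minus WT, was 1.78 ± 0.30, and that of leucine-free livers 0.0009 ± 0.32. The diet change was -2.50 ± 0.29 in DKO livers and -0.72 ± 0.31 in WT livers. Control DKO livers averaged 13.2 ± 5.31 CPM at day 8 and 7.06 ± 2.95 CPM at day 1, whereas control WT livers averaged 3.76 ± 1.73 CPM at day 8 and 9.16 ± 3.68 CPM at day 1. The 4 leucine-free groups were the lowest 4 by mean, and each of the 8 groups overlapped with its neighbour in that order.

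Of 13 other genes listed for PDZK1 and the transporters it binds 11 were tested, and 2 rose and 1 fell on leucine-free food at day 1 in each genotype. The shares called over all genes tested were 23.5% in DKO and 19.5% in WT livers. Scarb1, the HDL receptor held at the membrane by PDZK1, rose by 0.79 ± 0.095 (adjusted p = 7.38e-10) in DKO livers and by 0.86 ± 0.11 (adjusted p = 3.71e-09) in WT livers. Slc22a5, a carnitine transporter, rose by 1.31 ± 0.23 (adjusted p = 6.77e-06) in DKO livers and by 1.21 ± 0.25 (adjusted p = 0.000207) in WT livers. Pdzk1 itself fell by 0.26 in WT livers, and Slco1a1, an organic anion transporter, fell by 2.07 in DKO livers. The list's median change was 0.18, against 0.023 over all genes tested in DKO livers, and 0.12, against 0.014 over all genes tested in WT livers. Between the genotypes at day 1 edgeR called none of the 11, and 2 on leucine-free and 1 on control food had an unadjusted p under 0.05. The kidney marker list, for the tissue in which Pdzk1ip1 is best known, had 0 of 8 genes above the filter, with a summed level of at most 0.446 CPM in any liver.

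Raet1d (ENSMUSG00000078452, GRCm38 chromosome 10, 22360552 to 22374139, plus strand) encodes a ligand of NKG2D, the activating receptor by which natural killer cells recognise stressed cells. At day 1 leucine-free food lowered it in DKO livers. The lowest, median and highest level was 6.05, 11.0 and 30.2 CPM in leucine-free DKO livers and 16.3, 27.2 and 38.8 CPM in control DKO livers, and 12 of the 18 leucine-free livers lay below every control liver. It was 2.55, 10.8 and 30.9 CPM in leucine-free WT livers and 5.83, 9.48 and 20.7 CPM in control WT livers, which overlapped widely. The log2 fold change was -0.97 ± 0.29 (adjusted p = 0.00894) in DKO livers and -0.024 ± 0.34 (adjusted p = 0.974) in WT livers. With the mouse number as a further term of the fit, the fall in DKO livers was not called. On control food Raet1d averaged 27.4 ± 8.74 CPM in DKO livers and 11.5 ± 5.78 CPM in WT livers (SD, n = 8 and 7), a log2 difference of 1.25 ± 0.37 (adjusted p = 0.135), with all 8 DKO livers above the WT median and 5 above every WT liver. This difference was not called by edgeR; it was called by voom (adjusted p = 0.019) and, with edgeR, in 1 of 15 fits that left out 1 liver, the one without WT control replicate 2 (adjusted p from 0.0497 to 0.374). On leucine-free food the difference was 0.30 ± 0.27 (adjusted p = 0.593), and the interaction was -0.95 ± 0.46 (adjusted p = 0.821).

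At day 8 Raet1d had 6.63, 12.6 and 19.6 CPM in leucine-free DKO livers and 6.04, 14.4 and 45.8 CPM in leucine-free WT livers, which overlapped. The control DKO livers had 22.4, 26.7, 28.0, 45.3 and 63.0 CPM, and the control WT livers had 6.53, 6.64, 7.04, 8.40 and 11.9 CPM, with no overlap. The log2 difference of control livers, DKO minus WT, was 2.20 ± 0.47, and the diet change was -1.55 ± 0.43 in DKO livers and 1.14 ± 0.45 in WT livers. Control DKO livers of day 8 and day 1 were the highest of the 8 groups by mean and control WT livers of day 8 the lowest, and each group overlapped with its neighbour.

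Raet1d shares 363 of its 1441 exon bases (25.2%) with Raet1e, a related ligand gene on the same strand, so counts of the pair may be split and the level of Raet1d is uncertain. Raet1e itself averaged 3.54 ± 1.61 CPM in control DKO and 3.53 ± 1.61 CPM in control WT livers at day 1 (SD, n = 8 and 7), and 4.57 ± 2.41 CPM in control DKO and 2.00 ± 1.03 CPM in control WT livers at day 8 (n = 5 each). With leucine-free food Raet1e averaged 2.36 ± 1.13 CPM in DKO and 3.21 ± 1.54 CPM in WT livers at day 1 (SD, n = 18 and 12), and 1.62 ± 0.685 CPM in DKO and 4.61 ± 2.27 CPM in WT livers at day 8 (n = 6 each). As a description, at day 8 it was lower in DKO than in WT livers on that food, with a log2 difference of -1.50 ± 0.41. It was also lower on leucine-free than on control food in DKO livers, by -1.53 ± 0.42, with an interaction of -2.77 ± 0.60. Since the 2 genes share exon bases, this is not independent of the Raet1d values. Of 10 other genes listed for NKG2D and its ligands 6 were tested. At day 1, Ulbp1, another ligand, was lower in DKO livers on leucine-free food, by a log2 change of -0.78 ± 0.19 (adjusted p = 0.00107), the 1 call in the list at day 1 by edgeR. For that comparison 23.5% of all genes tested were called. The list's median diet change at day 1 was 0.21, against 0.023 over all genes tested in DKO livers, and -0.026, against 0.014 over all genes tested in WT livers. Klrk1, which encodes NKG2D, was at 0.418 to 4.50 CPM over the 67 livers. The summed CPM of 9 T and NK cell markers ran from 5.68 to 9.63 in control DKO livers and from 4.97 to 9.62 in control WT livers at day 8.

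Muc1 (ENSMUSG00000042784, GRCm38 chromosome 3, 89229057 to 89233381, plus strand) encodes a mucin anchored in the surface of epithelial cells, which in liver means mainly the bile ducts. It had the lowest level of the 7 per kilobase of exon, with 5 to 120 counts per library, and it was not called in any comparison of day 1. The lowest, median and highest level at day 1 was 0.586, 1.03 and 1.95 CPM in leucine-free DKO livers and 0.473, 0.821 and 1.39 CPM in leucine-free WT livers. On control food it was 0.634, 1.10 and 1.76 CPM in DKO livers and 0.632, 1.14 and 1.83 CPM in WT livers. All 4 groups overlapped. The log2 difference between the genotypes was 0.47 ± 0.20 (adjusted p = 0.178) on leucine-free food, with 15 of 18 DKO livers above the WT median, and 0.033 ± 0.26 (adjusted p = 0.999) on control food. The diet change was 0.024 ± 0.21 (adjusted p = 0.95) in DKO livers and -0.41 ± 0.25 (adjusted p = 0.259) in WT livers.

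At day 8 Muc1 had 0.404, 0.545 and 0.705 CPM in leucine-free DKO livers and 0.418, 0.927 and 1.69 CPM in leucine-free WT livers. The control DKO livers had 0.741, 1.30, 1.52, 1.95 and 2.19 CPM, and the control WT livers had 0.193, 0.348, 0.358, 1.03 and 1.05 CPM. Of the 5 control DKO livers 4 lay above every control WT liver, and all 6 leucine-free DKO livers lay below every control DKO liver. The log2 difference, DKO minus WT, was -0.89 ± 0.33 on leucine-free and 1.33 ± 0.33 on control food, and the diet change was -1.50 ± 0.32 in DKO and 0.73 ± 0.35 in WT livers. In the order of group means each of the 8 groups overlapped with its neighbour, and the bottom and top groups, both of day 8 and both DKO, averaged 0.558 ± 0.102 CPM on leucine-free and 1.54 ± 0.57 CPM on control food.

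Bile duct markers were present at low levels: Krt19 ran from 1.03 to 5.11 CPM and Epcam from 0.923 to 5.66 CPM over the 67 livers. The summed CPM of 10 markers of bile duct and gallbladder, most of it Clu, which hepatocytes also express, ran from 1032 to 1793 in leucine-free DKO livers and from 1369 to 1522 in control DKO livers at day 8. In WT livers of that day it ran from 1308 to 1721 on leucine-free and from 1377 to 1673 on control food. Of 9 of these markers tested, edgeR called none between the genotypes at day 8, with 1 on leucine-free and 2 on control food at an unadjusted p under 0.05, and for the diet in DKO livers 1 was higher and 2 were lower, where 20.6% of all genes tested were called. The median log2 difference of the 9, DKO minus WT, was 0.45 on control and -0.11 on leucine-free food at day 8. Over all genes tested it was -0.007 and 0.013. Their median diet change at day 8 was -0.28 in DKO and 0.38 in WT livers, against 0.006 and -0.004 over all genes tested. The part of these markers in the levels of Muc1 was not tested. Of 9 other membrane mucins listed, Muc16 alone passed the filter, at up to 2.14 CPM in a liver, and edgeR did not call it in any comparison of day 1; Muc3 and Muc15 had no count in any of the 67 libraries.

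**Figure D3:**
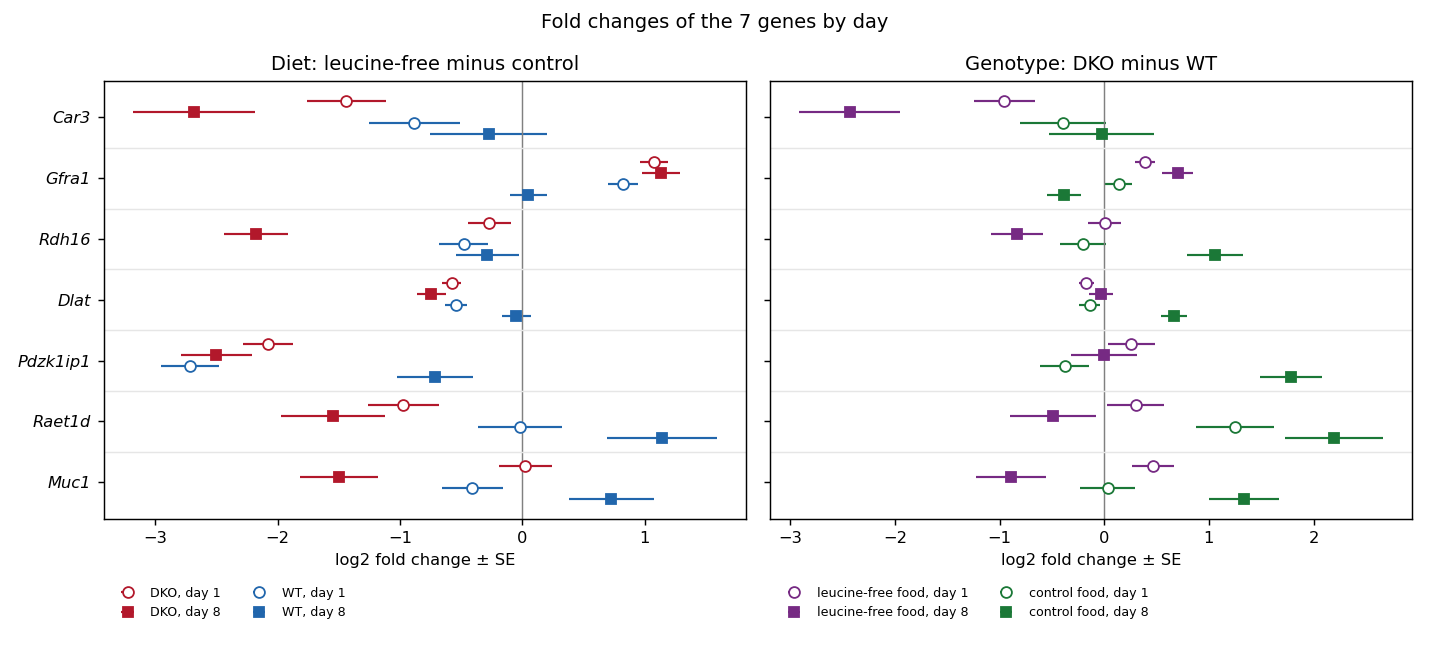
Log2 fold changes ± SE of the 7 genes for leucine-free against control food (left) and DKO against WT (right), open circles for day 1 and filled squares for day 8; colours mark the genotype on the left and the food on the right, and the vertical line is no change. At day 8 the DKO diet changes lie far from those of WT livers, whereas at day 1 the diet changes of both genotypes lie on the same side of 0 for every gene but Muc1, with Raet1d in WT livers at -0.0235, a value that changes sign with the setting. The day 8 values chose the genes and carry no test.

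Between the genes, levels were compared per kilobase of exon. At day 1 on control food Car3 averaged 566 CPM per kb in DKO livers and 745 CPM per kb in WT livers. The next, Rdh16 and Gfra1, averaged 23.6 and 23.3 CPM per kb in DKO livers and 27.2 and 21.2 CPM per kb in WT livers. Raet1d was at 19.0 CPM per kb in DKO livers and 7.98 CPM per kb in WT livers, and Dlat at 17.2 in DKO livers and 18.9 in WT livers. Pdzk1ip1 was at 3.97 CPM per kb in DKO livers and 5.15 CPM per kb in WT livers, and Muc1 at 0.494 in DKO livers and 0.471 in WT livers.

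How the 7 genes went together from liver to liver is described by Pearson's r of log2 CPM over the 67 livers, which share their groups and library scaling; no p is given. Pdzk1ip1 and Dlat had r = 0.81 (Spearman's rho = 0.74), and Car3 and Gfra1 had r = -0.78 (rho = -0.82). Gfra1 was also opposite to Pdzk1ip1, at r = -0.71, and to Dlat, at r = -0.69. For deviations from the group means, which leave out the differences between groups, Car3 and Gfra1 had r = -0.55 and Pdzk1ip1 and Dlat r = 0.36. Rdh16 and Dlat had r = 0.53 and Car3 and Raet1d r = 0.50 on that measure. Over the 45 livers of day 1 alone the deviations gave -0.65 for Car3 and Gfra1 and 0.74 for Rdh16 and Dlat. Without the 2 livers farthest from the median of Car3, the r of Car3 and Gfra1 was -0.78. Over all 67 livers Muc1 stayed within 0.28 of 0 with each of the other 6 genes, for levels and for deviations. All 21 pairs are drawn in the heat maps.

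**Figure D4:**
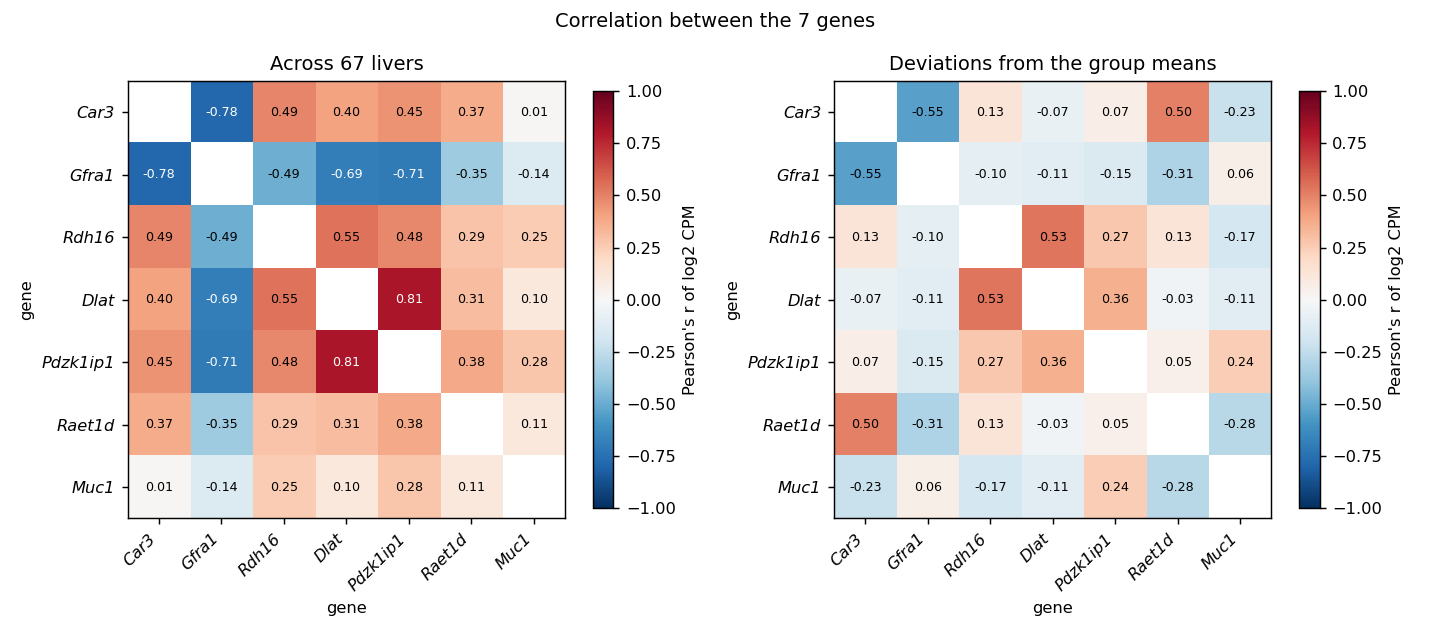
Pearson's r of log2 CPM between each pair of the 7 genes over 67 livers, as levels (left) and as deviations from the 8 group means (right); red is positive and blue negative, and the cells print r. Car3 against Gfra1 is negative in both, at -0.78 and -0.55, and Pdzk1ip1 with Dlat is the highest pair on the left, at 0.81.

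The genes of the whole table that went most like each of the 7 are named here as a description, with nothing read into shared function. Over the 67 livers the 3 genes nearest to Car3 were Gamt, a creatine synthesis enzyme (r = 0.87), Sucnr1, the succinate receptor (r = 0.87) and Nit2, an omega-amidase (r = 0.83); for deviations from the group means their r was 0.78, 0.73 and 0.78. The 3 genes nearest to Pdzk1ip1 were Acacb, a carboxylase acting on acetyl-CoA (r = 0.91), Chrna4, a nicotinic receptor subunit (r = 0.90) and Rdh11, a retinal reductase (r = 0.90); for deviations from the group means their r was 0.53, 0.50 and 0.53. For Dlat they were Me1, malic enzyme (r = 0.83), Tlcd1 (r = 0.83) and Pgrmc2 (r = 0.82), and for Gfra1 Fbxo31 (r = 0.82), Por, the electron donor of the P450 enzymes (r = 0.82), and Lbp, the lipopolysaccharide-binding protein (r = 0.81). For deviations the r was 0.69, 0.485 and 0.65 for the 3 genes nearest to Dlat and 0.56, 0.47 and 0.52 for those nearest to Gfra1. For Rdh16 the nearest were Acss3 (r = 0.77), Ces1f, a carboxylesterase (r = 0.76), and Parva (r = 0.75). Their r was 0.59, 0.58 and 0.54 for deviations, and 0.59, 0.65 and 0.41 for levels over the 45 livers of day 1. For levels, Raet1d and Muc1 had lower r with their nearest genes. Those of Raet1d were Mup-ps16 (r = 0.62), Raet1e, which shares exon bases with it (r = 0.61), and Asah2 (r = 0.58). For deviations their r was 0.59, 0.67 and 0.63, above that of the 3 genes nearest to Pdzk1ip1. The nearest to Muc1 were Ehf, an epithelial transcription factor (r = 0.57), Bag2 (r = 0.50) and Arl8a (r = 0.48), with 0.545, 0.47 and 0.41 for deviations.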

How the data were processed

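Liver RNA of 67 mice was sequenced. Library preparation used the directional NEBNext Ultra II kit after RNA isolation with miRNeasy from snap-frozen tissue, per the labels' protocols. The values are raw counts per Ensembl gene, as the authors deposited them, 1 whole number per gene and library. Tools named without a role in the submitters' processing notes are featureCounts 2.0.1, STAR 2.7.1a and DESeq2 1.26.0, with builds mm10 and GRCm38; the strand setting was not given in the sources used here. A table of the whole series was not used. Symbols and positions are from GENCODE M21 (GRCm38).

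A single fit over the 67 libraries, with a term for each of the 8 groups, was made in edgeR 4.0.16 (R 4.3.3): TMM scaling, the package's filter on low counts, its quasi-likelihood test with robust estimation, and Benjamini-Hochberg adjustment over 16908 genes in each of 10 comparisons. Adjusted p-values in the text come from it unless limma 3.58.1 (voom with quality weights) or DESeq2 1.42.0 is named. A gene was called at an adjusted p under 0.05. The filter let through all 7 genes, including any that passed only in the group where they are high. Correlations use log2 CPM with a prior count of 2, and the genes most like each gene are the 3 with the highest r among genes with a mean CPM of at least 1, without predicted or clone names. Genes of the pathway lists are named by the 3 smallest adjusted p in a comparison.

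The 7 genes, the lists and the tests were chosen with earlier results of these data known. The fit was tested on simulated counts. No 2 libraries of a group agreed within sampling noise (lowest chi-square per degree of freedom 18.2). The p-values cover the spread between mice, and CPM also carries counting error, which for Muc1, at 5 to 120 counts, limits the precision.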

Additional observations from a re-analysis of the deposited data

Results flagged for a closer look

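Of 42 sets of 4 to 10 livers (a gene in a group), 4 held a liver far from the others by Dixon's test, and chance flags about 1 in 20. DKO control replicate 3 of day 1 stood out for both Rdh16 and Dlat. It held 266 CPM of Rdh16, where the other 7 control DKO livers ran from 101 to 155 CPM, and 117 CPM of Dlat, where they ran from 71.5 to 90.5 CPM. Without it the log2 change of Rdh16 on leucine-free food in DKO livers was -0.093 and that of Dlat was -0.50, against -0.27 and -0.58 with it. DKO control replicate 2 of day 8 held 143 CPM of Gfra1, where the other 4 ran from 122 to 127 CPM. WT leucine-free replicate 5 of day 8 held 45.8 CPM of Raet1d, where the other 5 ran from 6.04 to 16.9 CPM; without it the log2 difference, DKO minus WT, on leucine-free food at day 8 was 0.032, against -0.49 with it.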

How the results depend on the processing

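Of 630 fold changes of the 7 genes under other settings 613 kept their direction and side of the threshold (day 8: moved by less than 1 SD), as did 1353 of 1407 with 1 liver left out, and all 112 group means moved by less than 1 SD under other scalings. The setting without 3 livers that stood apart was chosen after seeing the data. The cause of the changes was not tested.

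Called genes of all tested, DKO minus WT: on control food at day 1, 149, and 52 at a mean CPM of at least 1. At day 1 on leucine-free food 625 were called, 298 without the filter, 1224 with voom and 1419 without the 3 livers. On control food at day 8 there were 9, 5 in a fit of that day alone and 92 with voom, and on leucine-free food 349 and 217 without the filter. For the diet in WT livers at day 8 there were 888, 501 without the filter and 1930 with voom. For the interaction there were 63 at day 1, 35 with genes of mean CPM 1 or more and 29 with voom, and 7 at day 8, 0 without the filter, 12 with genes of mean CPM 1 or more, 3 in a fit of that day alone, 89 with voom, 35 with DESeq2 and 4 without the 3 livers.

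With 1 liver left out, the counts ran from 396 to 1183 on leucine-free food at day 1, 2 to 14 on control and 163 to 587 on leucine-free food at day 8, 568 to 744 for the diet in WT livers and 0 to 38 for the interaction at day 8. The lowest and highest came without WT leucine-free day 1 replicate 3 and WT leucine-free day 1 replicate 12, WT control day 8 replicate 2 and DKO control day 8 replicate 3, and WT leucine-free day 8 replicate 1 and DKO leucine-free day 8 replicate 1 for the genotype comparisons. Of the 7 genes, 0 to 1 were called on control food and 1 to 2 on leucine-free food at day 1. On control food 1 of 7 was called with voom. On leucine-free food 1 of 7 was called with total counts, without the filter and in a fit of day 1 alone, Gfra1 each time.

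Mouse numbers recur in the groups, and the labels give no shared source for mice of the same number. Over 80 same-numbered pairs r of the deviations ran from -0.17 to 0.24. At day 1 the mean r of same-numbered mice was above that of other-numbered mice in every pair of groups. For leucine-free DKO and WT livers it was 0.067 against -0.004. At day 8 it was above in some pairs of groups and below in others. Whether the number marks a shared source was not tested. With the number as a replicate block 357 genes and 0 of the 7 (Gfra1 adjusted p = 0.0716, Car3 0.215) were called between the genotypes on leucine-free food at day 1, Raet1d was not called for the diet in DKO livers (adjusted p = 0.106), Car3 was called for the diet in WT livers (adjusted p = 0.0294), and 1 gene for the interaction at day 8.

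Uncalled values near 0 changed sign: Rdh16 between the genotypes on leucine-free food at day 1 (-0.079 with the block, -0.076 with voom, -0.072 without the 3 livers), Raet1d for the diet in WT livers (0.10 with the block, 0.073 without the 3 livers) and Muc1 for the diet in DKO livers (-0.11 with the block, -0.052 with voom). With 1 liver left out these and others near 0 ran across it: Muc1: DKO minus WT on control food -0.072 to 0.21; Rdh16: DKO minus WT on leucine-free food -0.037 to 0.051; Raet1d: leucine-free minus control, WT -0.26 to 0.19; Muc1: leucine-free minus control, DKO -0.064 to 0.13; Dlat: interaction of diet and genotype -0.064 to 0.049. Depth limits Muc1 and, on leucine-free food, Pdzk1ip1.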
